A study of Homo sapiens with 4 samples.

Results

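The plastins and other genes that bundle actin filaments or tie them to the membrane were followed by RNA-Seq in FaDu, an established human cell line from a squamous carcinoma of the hypopharynx, in 4 libraries. The 8 genes were chosen by name: the plastins LCP1, PLS1 and PLS3, the fascin FSCN1, the non-muscle α-actinins ACTN1 and ACTN4, and the membrane linkers EZR and MSN. LCP1 was also chosen because it was among the largest losses after TET1 knockdown, so its fall below is a description of how it was picked. Of the 62077 rows of the expression table, 9 carried one of the 8 symbols. The 9th was a copy of PLS3 on a patch sequence, listed at 0 in every library and left out, so 8 rows were used.

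Plastins, fascin and α-actinins each hold neighbouring actin filaments together. Plastins and fascin build the tight parallel bundles of microvilli and filopodia, whereas α-actinins space filaments more loosely in stress fibres and anchor them at adhesion sites. Ezrin, radixin and moesin do not bundle filaments but join them to membrane proteins. In the textbook picture LCP1 (L-plastin) is the plastin of white blood cells that many carcinoma lines also make, PLS1 is the plastin of intestinal and inner-ear microvilli, and PLS3 is found in most solid tissues.

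The study asked how TET1, a dioxygenase that oxidises 5-methylcytosine in DNA, shapes the response of these cells to low oxygen. Cells had been infected with a lentivirus giving either a scrambled control hairpin or a hairpin against TET1 (TET1-si). They then stayed in normoxia or spent 19 h in hypoxia, at 1% oxygen and 5% CO2. This gave N-scr (normoxia, scrambled), N-si (normoxia, TET1-si), H-scr (hypoxia, scrambled) and H-si (hypoxia, TET1-si), all of them carrying the same pLKO.1-puro vector backbone. Each group was 1 library, so no difference below has a replicate check or a p-value, and a difference between cultures cannot be told apart from an effect of hairpin or oxygen. Only 1 hairpin was given for TET1, so effects particular to that hairpin cannot be told apart from loss of TET1, and the study's text calls the infected lines clones, and how many cells founded each is not given in the sources used here.

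The hairpin is shown because every knockdown comparison rests on it. Its 21-base target lay at chr10:70451833-70451853 (hg19, plus strand), in the UTR part of exon 12 of 12 of TET1.
TET1 hairpin target: ccttgatagaatcactcagtt
TET1 (ENSG00000138336) was listed at 0.129 FPKM (N-scr) and 0.331 (H-scr) in scrambled cells, against 0.0493 (N-si) and 0.122 (H-si) after knockdown. FPKM are fragments scaled by exon length and by library size, so levels of different genes can be set side by side per length. In the same order these levels correspond to about 28, 76, 11 and 26 reads, so TET1 was lower in the TET1-si library in both oxygen states on few reads. The libraries held 22500000 to 24500000 reads. In bulk RNA, fewer cells expressing a gene and less RNA per cell cannot be told apart.

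FaDu cells carried high levels of squamous epithelial markers and lacked most defining markers of leukocytes and fibroblasts. The summed FPKM of 10 squamous markers was 4976 (N-scr) and 7792 (H-scr) with the scrambled hairpin and 2024 (N-si) and 4081 (H-si) with TET1-si. This fall was carried mainly by the keratins KRT5 and KRT17. KRT5 went from 2673 (N-scr) and 3992.5 (H-scr) to 524 (N-si) and 1430 (H-si). KRT14 and KRT6A were near 0 in both TET1-si libraries, and SFN went from 242 (N-scr) and 318 (H-scr) to 165 (N-si) and 144 (H-si). TP63 was a little lower in both oxygen states, and DSP was lower in normoxia and higher under hypoxia. In contrast, CDH1 went from 179 (N-scr) and 292 (H-scr) to 267 (N-si) and 399 (H-si), and EPCAM and PKP1 were also higher. The median of the 10 markers stayed between 105 and 115 FPKM. Of 12 leukocyte markers, 5 or 6 were listed at 0 in each library, among them SPI1, TYROBP and CD3E in all 4, and PTPRC was at or below 0.0101. The leukocyte sum was 14.0 and 28.2 in the normoxic and hypoxic scrambled libraries and 52.8 and 50.6 in the TET1-si ones. The integrin gene ITGB2 gave 5.04 and 18.2 of these sums in the scrambled libraries and 40.4 and 39.8 in the TET1-si ones. HCLS1, a leukocyte adaptor gene of the same list, went the way of LCP1, from 2.35 (N-scr) and 3.04 (H-scr) to 0.0727 (N-si) and 0.390 (H-si). LAPTM5 went the other way, from 0.282 (N-scr) and 0.404 (H-scr) to 3.13 (N-si) and 2.49 (H-si). CD14 was also higher with TET1-si, and CORO1A stayed between 4.31 and 5.71. Of 7 fibroblast markers, COL1A2 and LUM were at 0 throughout, and the sum of 5.30 to 37.2 FPKM was almost entirely COL1A1. The squamous, leukocyte and fibroblast sums moved with knockdown or oxygen state, and their part in the results below was not tested.

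LCP1 was abundant in both scrambled libraries and nearly gone in both TET1-si libraries. LCP1 (ENSG00000136167, chr13:46700061-46786006, minus strand, hg19) was at 71.7 FPKM (N-scr) and 85.2 (H-scr) in scrambled cells, against 1.76 (N-si) and 0.583 (H-si) after knockdown. In the same order these values correspond to about 5666, 7169, 148 and 45 reads. Both scrambled libraries lay far above both TET1-si libraries, and the highest level was 146 times the lowest.

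The other plastins did not follow LCP1. PLS1 (ENSG00000120756, chr3:142315229-142432506, plus strand) was at 15.9 FPKM (N-scr) and 13.3 (H-scr) with the scrambled hairpin and 28.8 (N-si) and 28.2 (H-si) with TET1-si, so that both TET1-si libraries were the higher ones. PLS3 (ENSG00000102024, chrX:114795501-114885181, plus strand) was at 176 (N-scr) and 158 (H-scr) in scrambled cells, against 140 (N-si) and 122 (H-si) after knockdown, which placed the TET1-si libraries a little below the scrambled ones. The highest PLS1 level was 2.17 times its lowest and the highest PLS3 level 1.44 times its lowest. PLS3 was the most abundant plastin per length in all 4 libraries.

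FSCN1, which encodes the filopodial bundler fascin, was the steadiest of the 8. FSCN1 (ENSG00000075618, chr7:5632439-5646286, plus strand) was at 80.5 FPKM (N-scr) and 66.2 (H-scr) with the scrambled hairpin and 77.4 (N-si) and 69.7 (H-si) with TET1-si, a span of 1.22-fold in which both hypoxic libraries were the lower ones.

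The α-actinin ACTN4, a crosslinker of stress fibres and of the cell front, was the most abundant of the 8 in every library. ACTN4 (ENSG00000130402, chr19:39138289-39222223, plus strand) was at 744 FPKM (N-scr) and 946 (H-scr) in scrambled cells, against 363 (N-si) and 405 (H-si) after knockdown. Both scrambled libraries were well above both TET1-si libraries, with a span of 2.60-fold. Its paralog ACTN1 (ENSG00000072110, chr14:69340860-69446157, minus strand), the α-actinin of focal adhesions and stress fibres, was at 251 (N-scr) and 288 (H-scr) with the scrambled hairpin and 349 (N-si) and 299 (H-si) with TET1-si. ACTN1 was lowest in N-scr and highest in N-si, while its hypoxic libraries lay close together between them.

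The membrane linkers varied less than ACTN4. EZR (ENSG00000092820, chr6:159186773-159240444, minus strand), which encodes ezrin, was at 123 FPKM (N-scr) and 110 (H-scr) in scrambled cells, against 137 (N-si) and 97.1 (H-si) after knockdown, so it was lower in hypoxia in both lines. MSN (ENSG00000147065, chrX:64887537-64961791, plus strand), which encodes moesin, was at 60.4 (N-scr) and 51.8 (H-scr) with the scrambled hairpin and 50.5 (N-si) and 36.5 (H-si) with TET1-si. H-si was the lowest library for both linkers. MSN was lower in each TET1-si library than in its scrambled partner.

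**Figure D1:**
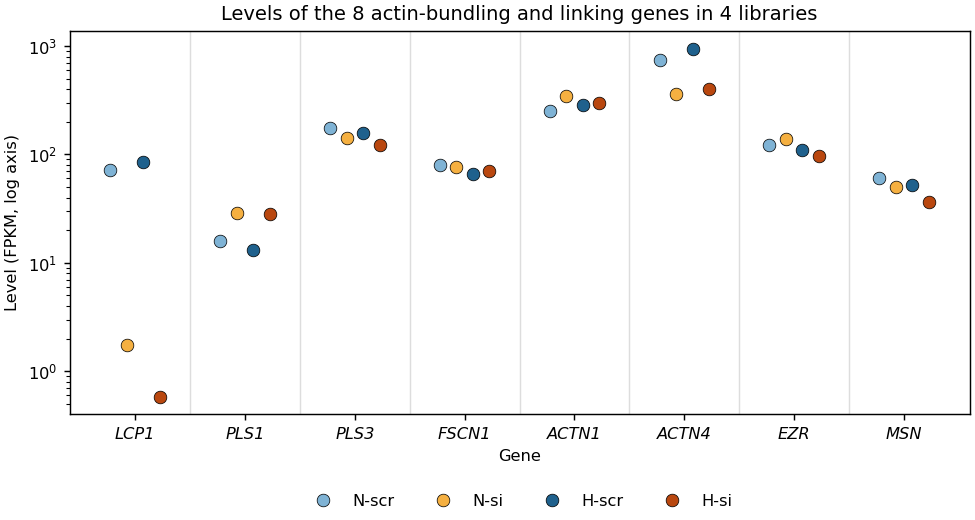
Level of each of the 8 genes in each library (FPKM on a log axis, 1 point per library, no error bars because each group was 1 library). LCP1 falls from 71.7 and 85.2 FPKM in the scrambled libraries to 1.76 and 0.583 in the TET1-si libraries, PLS1 and ACTN4 split by knockdown in opposite directions, and the other 5 genes stay within a 1.65-fold span.

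The order of the 8 genes hardly moved apart from LCP1. ACTN4, ACTN1, PLS3 and EZR held places 1 to 4 in every library. LCP1 held place 6 in N-scr and 5 in H-scr, close to FSCN1 and MSN, and place 8 in both TET1-si libraries. Among 19296 protein-coding genes LCP1 stood at place 1887 (N-scr) and 1492 (H-scr), against 10924 (N-si) and 12520 (H-si). In N-si the neighbours ACTN4 and ACTN1 were only 1.04-fold apart. No spread within a group exists, so which neighbours in this order differ could not be judged.

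The makeup of each family followed from these levels. LCP1 made up 27.2% (N-scr) and 33.2% (H-scr) of the summed plastin FPKM in scrambled cells, but 1.03% (N-si) and 0.386% (H-si) after knockdown. The plastin sum was 264 (N-scr) and 257 (H-scr) in scrambled cells, against 171 (N-si) and 151 (H-si) after knockdown, so the sum was lower with TET1-si in both oxygen states although PLS1 was higher. PLS1 went from 0.222 and 0.156 times the LCP1 level in the scrambled libraries to 16.4 and 48.3 times it in N-si and H-si. Among the α-actinins, ACTN4 was 2.97 (N-scr) and 3.29 (H-scr) times ACTN1 with the scrambled hairpin, against 1.04 (N-si) and 1.36 (H-si) times with TET1-si. The α-actinin sum was 994 (N-scr) and 1233 (H-scr) FPKM, and 712 (N-si) and 704 (H-si) after knockdown.

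Radixin completed the picture of the linkers. RDX (ENSG00000137710, chr11:110045605-110167447, minus strand), the remaining gene of the ezrin, radixin and moesin (ERM) family, was at 44.6 FPKM (N-scr) and 29.8 (H-scr) with the scrambled hairpin and 115.6 (N-si) and 84.9 (H-si) with TET1-si. Both TET1-si libraries were above both scrambled libraries, as for PLS1. RDX was 0.737 (N-scr) and 0.575 (H-scr) times MSN, and 2.29 (N-si) and 2.32 (H-si) times MSN after knockdown. The sum of EZR, RDX and MSN was 228 (N-scr) and 192 (H-scr) in scrambled cells, against 303 (N-si) and 219 (H-si) after knockdown, so this sum was higher with TET1-si in both oxygen states. The related tumour suppressor NF2, which encodes merlin, was between 12.8 and 18.1 FPKM. The other paralogs FSCN2, FSCN3, ACTN2 and ACTN3 had means below 1 FPKM.

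**Figure D2:**
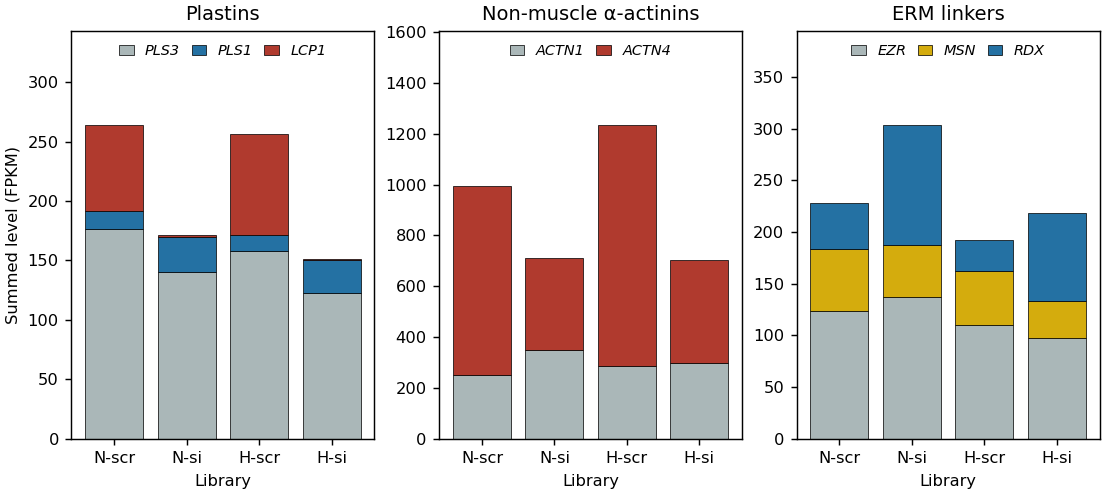
Summed level (FPKM, from 0) of the plastins, the non-muscle α-actinins and the ERM linkers in each library, with each gene's part as a coloured segment. LCP1 leaves the plastin bar and ACTN4 shrinks in the α-actinin bar after TET1-si, while RDX takes a larger part of the ERM bar.

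The first comparison asked what TET1-si changed under hypoxia (H-si against H-scr). A gene was counted as 2-fold changed where it moved by at least 1 on the scale of log2(FPKM + 0.1) and had a mean of at least 1 FPKM. By this rule 12.0% of 15057 genes were higher and 8.35% were lower, and the median over all of them was 0.10. Of the 8 genes, 1 was higher and 2 were lower, with a median change of -0.28. LCP1 entered this count by its choice, so nothing is read from it. LCP1 changed by -6.96 on this scale, with an FPKM ratio of 146 without the pseudocount, and 1 of 11907 protein-coding genes fell further. The 95% interval of its log2 ratio, which covers counting error only and has no pseudocount, was -7.65 to -6.77. ACTN4 changed by -1.22 (interval -1.24 to -1.21), a 2.33-fold lower level. PLS1 changed by 1.08 (interval 0.98 to 1.19), a 2.12-fold higher level, and fell to 0.94 and 0.97, short of 2-fold, when libraries were scaled by median of ratios or by upper quartile.

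The remaining members changed by less than 2-fold under hypoxia. MSN was at -0.50 (interval -0.57 to -0.44), PLS3 at -0.37 (interval -0.41 to -0.33) and EZR at -0.19. FSCN1 was at 0.07 and ACTN1 at 0.05, and both of these turned negative when libraries were scaled by median of ratios or by upper quartile. RDX changed by 1.51 (interval 1.45 to 1.57), more than any of the 8 on the higher side. Relative to the median of all genes, the change was -7.06 for LCP1, -1.32 for ACTN4 and 0.98 for PLS1.

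The same comparison in normoxia (N-si against N-scr) gave a like picture for LCP1 and ACTN4. Of 15057 genes 12.1% were higher and 5.56% lower, with a median of 0.15. None of the 8 genes was 2-fold higher and 2 were lower, with a median of -0.16. LCP1 was chosen for its loss after knockdown, so nothing is read from its part in this count either. LCP1 changed by -5.27 (interval -5.59 to -5.11), with an FPKM ratio of 40.8, and 8 protein-coding genes fell further. ACTN4 changed by -1.03 (interval -1.05 to -1.02), just inside the threshold and just outside it in TPM at -0.98. PLS1 changed by 0.85 (interval 0.76 to 0.96), short of 2-fold. ACTN1 was at 0.48 (interval 0.45 to 0.50) here against 0.05 under hypoxia. PLS3 was at -0.33, MSN at -0.26 and FSCN1 at -0.06. EZR was at 0.16, which turned to between -0.02 and -0.01 under the scalings by upper quartile and median of ratios. RDX changed by 1.37 (interval 1.32 to 1.43). The hypoxic and normoxic comparisons use different libraries, and on the deposited scale EZR and FSCN1 had opposite signs in them.

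**Figure D3:**
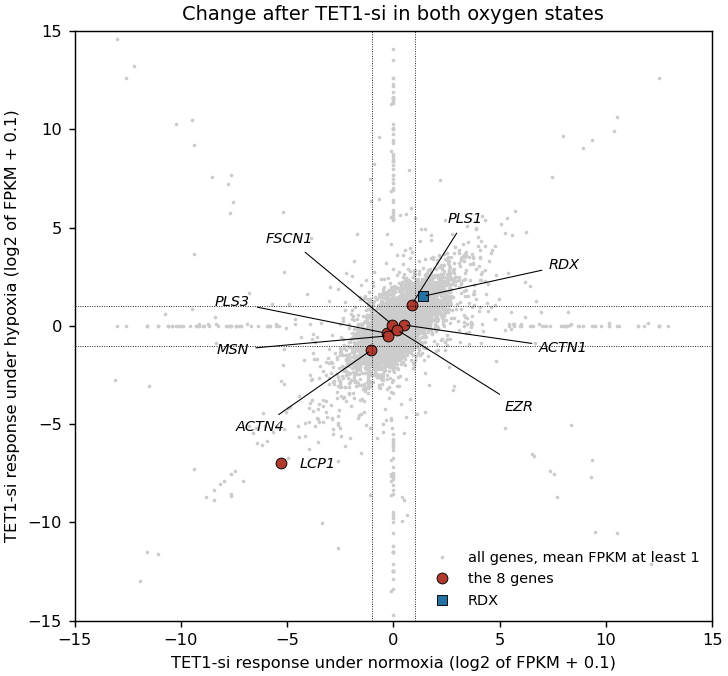
Change after TET1-si in normoxia (x axis) and in hypoxia (y axis) on the scale of log2(FPKM + 0.1), with all genes of mean FPKM at least 1 in grey, the 8 genes as red circles and RDX as a blue square; dotted lines mark 2-fold. LCP1, chosen for its fall, is at -5.27 and -6.96, ACTN4 lies just past 2-fold lower on both axes, and PLS1 and RDX lie on the higher side.

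The second question was how the 8 genes responded to hypoxia itself. Between both scrambled libraries (H-scr against N-scr) 12.9% of 15057 genes were 2-fold higher and 4.53% lower, with a median of 0.05, and none of the 8 was either. Their median was -0.16. ACTN4 was at 0.35 (interval 0.33 to 0.36), LCP1 at 0.25 (interval 0.20 to 0.30) and ACTN1 at 0.20 (interval 0.17 to 0.23). FSCN1, PLS1, MSN, EZR and PLS3 were between -0.28 and -0.16.

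Between the knockdown libraries (H-si against N-si) 12.5% of genes were 2-fold higher and 8.66% lower, with a median of 0.03. None of the 8 was higher and LCP1 was lower, at -1.44, with an FPKM ratio of 3.01 on about 148 and 45 reads (interval -2.11 to -1.10). With a pseudocount of 1 this change was -0.80, short of 2-fold. EZR was at -0.50 (interval -0.55 to -0.45), MSN at -0.47, ACTN1 at -0.22, PLS3 at -0.20 and FSCN1 at -0.15, while ACTN4 was at 0.16. PLS1 was at -0.03 and turned to 0.10 in TPM. The hypoxia response of LCP1 after knockdown, less the one without it, was -1.69 on the log2 scale. It uses the libraries in which LCP1 was chosen for its loss, so nothing is read from it. All 4 comparisons share libraries in pairs, so they are given side by side and not counted as separate evidence.

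The study selected TET1-dependent genes with 3 criteria on FPKM: a level in H-scr more than 2 times that in H-si, a rise from N-scr to H-scr, and a level in N-si no higher than in N-scr. Among the 8 genes LCP1 and ACTN4 met all 3. The same criteria were met by 578 genes with a mean of at least 1 FPKM, which is 3.84% of them. Without that filter 2687 rows of the expression table met them. Neither number is the one the study reported, and whether LCP1 and ACTN4 are in its list was not checked. Since the criteria use the contrast on which LCP1 was chosen, the match of LCP1 and ACTN4 to them is a description of both genes.

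The start-site windows of the genes that moved are shown because TET1 acts on methylated cytosines, most of which lie in CG pairs. Each window runs from 250 bases before the start to 50 bases from it in the hg19 genome, on the strand of the gene, with the start of the canonical GENCODE transcript. Capitals mark CG pairs and the letters TATAAA. The windows are chr13:46756263-46756562 (minus) for LCP1, chr3:142314985-142315284 (plus) for PLS1 and chr19:39138039-39138338 (plus) for ACTN4.
LCP1 start: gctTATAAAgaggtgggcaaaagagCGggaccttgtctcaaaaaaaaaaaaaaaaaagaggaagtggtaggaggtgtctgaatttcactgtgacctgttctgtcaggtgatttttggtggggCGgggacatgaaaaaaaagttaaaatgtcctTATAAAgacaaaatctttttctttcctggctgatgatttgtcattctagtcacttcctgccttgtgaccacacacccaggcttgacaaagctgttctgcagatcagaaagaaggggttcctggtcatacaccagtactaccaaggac
PLS1 start: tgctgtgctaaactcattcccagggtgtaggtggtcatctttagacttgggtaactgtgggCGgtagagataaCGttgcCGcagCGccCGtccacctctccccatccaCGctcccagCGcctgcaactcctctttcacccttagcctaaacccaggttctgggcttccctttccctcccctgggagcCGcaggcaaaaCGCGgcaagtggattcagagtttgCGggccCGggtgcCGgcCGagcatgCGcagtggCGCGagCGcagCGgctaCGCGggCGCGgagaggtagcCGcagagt
ACTN4 start: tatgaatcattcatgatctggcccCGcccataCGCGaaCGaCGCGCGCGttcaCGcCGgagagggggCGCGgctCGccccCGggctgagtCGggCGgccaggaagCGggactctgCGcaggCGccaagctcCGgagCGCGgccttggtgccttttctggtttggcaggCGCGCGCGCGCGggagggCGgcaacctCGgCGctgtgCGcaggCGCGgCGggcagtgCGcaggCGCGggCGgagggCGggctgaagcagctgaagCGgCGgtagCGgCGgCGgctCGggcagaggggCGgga
LCP1 and ACTN4, the 2 members that were at least 2-fold lower after TET1-si, had the fewest and the most CG pairs of the 8. The LCP1 window held 2 CG pairs at 42.7% GC, and 8.69% of 19064 protein-coding windows held no more. Its start, at chr13:46756312, lies well inside the LCP1 locus, which reaches to 46786006. The starts of the other members lie close to the ends of their loci. Windows at other LCP1 starts were not counted. The ACTN4 window held 47 CG pairs at 74.7% GC, a number that 97.0% of windows do not exceed. PLS1 lay near the median of 23, with 24 CG pairs. The other members held 13 (PLS3), 29 (ACTN1 and MSN), 32 (EZR) and 36 (FSCN1) CG pairs, and the RDX window held 46. DNA methylation was not analysed here, and the FPKM values are per gene and do not say which start was used.

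Short motifs were counted in the same windows as letters only. The hypoxia-response core was searched as ACGTG and as GCGTG on both strands, with a CACGTG palindrome counting once on each. ACGTG stood in 23.4% of all windows and, 3 times, in that of MSN, and in no other window of the 8 genes. GCGTG stood in 45.4% of all windows, and in those of PLS1, FSCN1, ACTN1, ACTN4 and EZR. TATAAA on either strand stood in 9.38% of windows. The LCP1 window held it at -247 and -97 from the start, and that of FSCN1 at -34. The CArG box, the binding letters of serum response factor, stood in 1.21% of all windows and in none of the 8 genes. A match here describes the sequence and is not a binding site.

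The neighbours of LCP1 on chromosome 13 did not share its fall. The 5 nearest protein-coding genes on each side with a mean of at least 1 FPKM had a median change after TET1-si of 0.30 under hypoxia and 0.47 in normoxia, and none of the 10 was 2-fold changed in either state. The nearest of them were ZC3H13, at 0.80 under hypoxia, and KIAA0226L, at -0.08. Around PLS1 the medians were 0.16 and -0.05. TFDP2 at 1.27 and XRN1 at 1.03 were 2-fold higher under hypoxia and PCOLCE2 at -3.80 was lower. Around ACTN4 the medians were -0.63 under hypoxia and -0.29 in normoxia, the lowest of the 8 neighbourhoods in both states, with a range of -1.50 to 0.23 under hypoxia. Around the other 5 genes the medians lay between -0.26 and 0.37 under hypoxia.

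Overlapping genes matter for reads that were not stated to keep strand. CAPN12, a calpain gene on the minus strand, overlaps the end of ACTN4 and was at 27.8 FPKM (N-scr) and 39.6 (H-scr) with the scrambled hairpin and 12.2 (N-si) and 21.5 (H-si) with TET1-si. It moved in the same direction as ACTN4, and reads in the shared stretch cannot be assigned. ACTN1 overlaps the pseudogenes BANF1P1 and HMGN1P3, which reached at most 2.25 and 7.08 FPKM. How reads matching several paralogs were counted is not given in the sources used here.

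**Figure D4:**
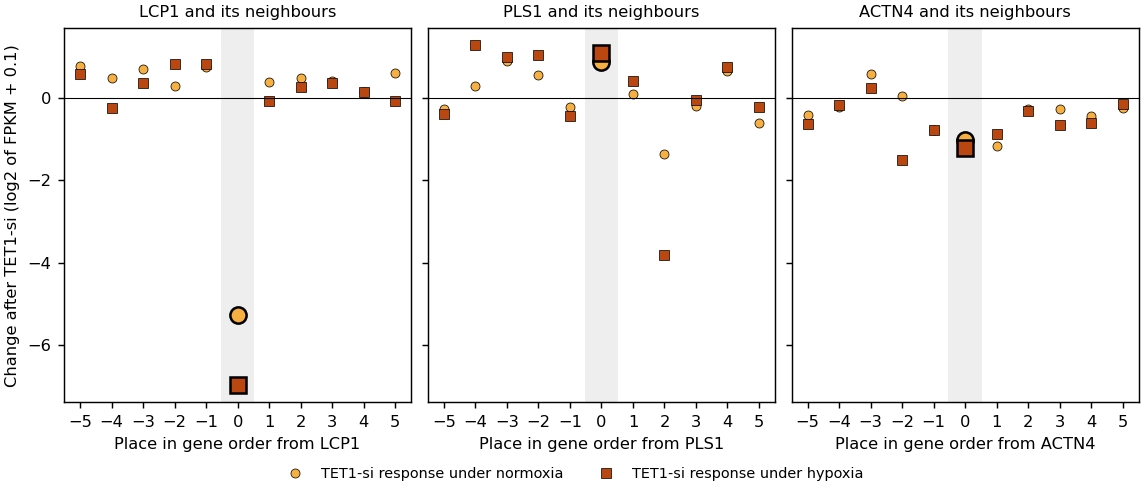
Change after TET1-si (log2 of FPKM + 0.1) of LCP1, PLS1 and ACTN4 (large symbols at place 0) and of the 5 nearest protein-coding genes with mean FPKM at least 1 on each side, in gene order. Circles are normoxia and squares hypoxia, with 1 library per group. LCP1 drops to -5.27 and -6.96 while its neighbours stay between -0.26 and 0.81.

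The genes whose profile over the 4 libraries was most like that of LCP1 were named by the smallest distance between centred log2(FPKM + 0.1) values among 11906 other protein-coding genes. They were SALL1, CD40, SVIP, AC142401.2 and COCH, at distances of 1.37 to 1.61. All 5 were far less abundant, with means of 1.71 to 3.44 FPKM. Their levels at or near 0 in both TET1-si libraries follow from the choice by likeness to LCP1. With a pseudocount of 1 the nearest were KRT6A, KRT14, KRT13, CXCL1 and IGFL1, with 0 genes shared, so the ranking depends on how low values are treated.

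The wider actin machinery was described with 126 genes in 8 lists, of which 117 had a mean of at least 1 FPKM. After TET1-si under hypoxia 12 of them (10.3%) were 2-fold higher and 11 (9.40%) lower, with a median of -0.16. In normoxia 6 were higher and 11 lower, with a median of 0.09. The hypoxia response without knockdown had 13 genes (11.1%) higher and none lower, beside 12.9% and 4.53% of all genes. The one after knockdown had 11 (9.40%) higher and 4 (3.42%) lower, beside 12.5% and 8.66%. The TET1-si shares under hypoxia are close to the 12.0% and 8.35% of all genes, while those in normoxia, 5.13% higher and 9.40% lower, compare with 12.1% and 5.56% of all genes. Scaled by median of ratios, the TET1-si comparison under hypoxia had 8 genes higher and 18 lower. That scaling moved the median of all genes from 0.10 to -0.03. The shares of all genes under it are not given here, so these counts are not comparable with the shares above. LCP1 was chosen for its fall, so nothing is read from its place beside these lists, where the lowest change under hypoxia was -2.17.

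Other bundlers and crosslinkers had 5 genes higher and 3 lower of 26 after TET1-si under hypoxia. This count and those of the lists below stand beside 12.0% higher and 8.35% lower of all genes. The lists are small, and none is read as set apart from these shares. SVIL, which encodes the membrane-linked actin binder supervillin, was at 15.3 FPKM (N-scr) and 11.4 (H-scr) in scrambled cells, against 29.6 (N-si) and 50.02 (H-si) after knockdown, a change of 2.13. ANLN, the crosslinker of the cytokinetic ring, was at 159 (N-scr) and 108 (H-scr) with the scrambled hairpin and 85.5 (N-si) and 24.0 (H-si) with TET1-si, a change of -2.17. SYNPO, an α-actinin binder, had a hypoxia response of 1.77 in scrambled cells, the largest in this list among genes with a mean of at least 5 FPKM.

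Filopodial genes and formins had 1 gene higher and none lower of 12, namely ENAH, an elongation factor of filament tips, at 1.31. Of 16 Arp2/3 and WAVE genes, which build branched networks, only ARPC1A was 2-fold changed, at -1.38, and its locus overlaps that of ARPC1B. Among 19 genes of actin and filament turnover 2 were higher and 1 lower. GSN, which encodes the severing protein gelsolin, was at 6.17 FPKM (N-scr) and 23.3 (H-scr) in scrambled cells, against 10.8 (N-si) and 51.3 (H-si) after knockdown, a hypoxia response of 1.90. TMSB10, which encodes an actin-monomer binder, went from 1712 (N-scr) and 1597 (H-scr) FPKM to 677 (N-si) and 555 (H-si).

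Partners of the linkers had 1 gene higher and 3 lower of 16 after TET1-si under hypoxia. ICAM1, an adhesion receptor bound by ERM proteins, changed by -1.83, and CD44, the hyaluronan receptor, by -1.09, while SLC9A3R2, a scaffold that ezrin binds, changed by 1.21. MUC1, a membrane mucin, had a hypoxia response of 2.78 without knockdown and 1.86 after it. Partners of α-actinin had 1 higher and 1 lower of 14. PDLIM2, a PDZ and LIM adaptor, changed by 1.33 and ILK, a pseudokinase of integrin adhesions, by -1.56. Tropomyosin and myosin II genes had 1 higher and 2 lower of 12, with the non-muscle myosin heavy chain MYH14 at 1.12 and the light chain MYL9 at -1.29.

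**Figure D5:**
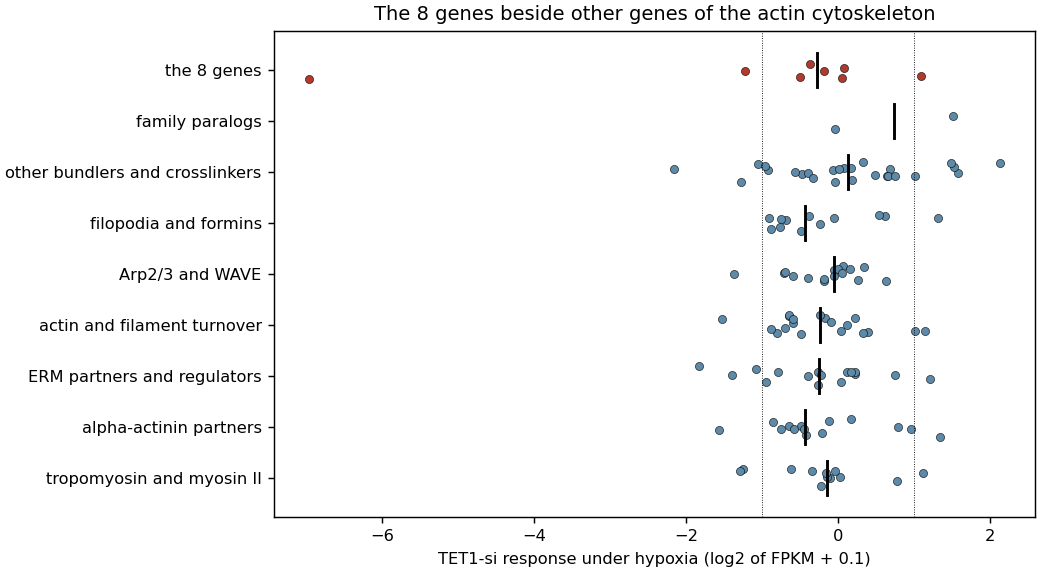
Change after TET1-si under hypoxia (log2 of FPKM + 0.1) of the 8 genes (red) and of each list of other actin genes with mean FPKM at least 1 (blue); thick bars are medians and dotted lines mark 2-fold. LCP1, chosen for its fall, is at -6.96, and the list genes lie between -2.17 and 2.13.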

How the data were processed

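Messenger RNA from 4 FaDu cultures, 1 library per group, was sequenced on an Illumina HiSeq instrument. The authors aligned reads to hg19 with TopHat and Cufflinks and Ensembl annotation, and deposited gene-level FPKM. Versions, filters and strand are not given in the sources used here, and the labels call the reads single end where the study's methods call them paired end. The members and lists were chosen with earlier results of these data known.

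Changes are differences of log2(FPKM + 0.1), which understates the change of low genes. Genes with a mean of at least 1 FPKM were counted, with no count test and no p-value. Depth was recovered from 4396 single-exon genes of at least 600 bp, where 97.0% to 97.7% of low values were whole reads within 0.05. Approximate reads are FPKM times depth times canonical GENCODE v44lift37 transcript length less 215 bp (GENCODE held the IDs of 86.3% of rows). Exact Clopper-Pearson 95% intervals of log2 ratios rest on them and cover counting error only. The depth search, the 2-fold calls and the intervals were tested on simulated data, and the other steps were not.

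The 8 genes, TET1 and their paralogs were named, with the 5 genes most like LCP1 and, in each actin list, the largest rise and fall among genes with a mean of at least 5 FPKM. Not all of the latter are described. Alternatives were pseudocounts of 1 and 0.01, TPM, scaling by median of ratios or upper quartile, and 10 neighbours a side. Python 3.11.15, numpy 2.4.6, pandas 2.3.3, scipy 1.17.1 and matplotlib 3.10.9 were used.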

Additional observations from a re-analysis of the deposited data

Results flagged for a closer look

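The change after TET1-si or after hypoxia had opposite signs in the 2 states for LCP1, ACTN1, EZR and FSCN1, each on 1 library per group. The difference was not tested for any of them. For LCP1 the hypoxia response after knockdown, less the one without it, was -1.69 on the log2 scale, from -1.44 after knockdown and 0.25 without. With a pseudocount of 1 it was -1.05, and the TET1-si libraries held about 148 and 45 LCP1 reads. LCP1 was chosen for its loss after knockdown in these libraries, so nothing is read from its difference. For ACTN1 the same difference was -0.42, from -0.22 and 0.20. For EZR the TET1-si response under hypoxia less that in normoxia was -0.34, from 0.16 in normoxia and -0.19 under hypoxia. For FSCN1 it was 0.13, from -0.06 and 0.07. Scaled by median of ratios or by upper quartile, EZR and FSCN1 had the same sign in both oxygen states. By median of ratios the TET1-si response of ACTN1 then had opposite signs, at -0.09 under hypoxia and 0.31 in normoxia.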

How the results depend on the processing

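No paired analysis was possible because each group was 1 library with no shared replicate. Pseudocounts of 1 and 0.01, TPM, and scaling by median of ratios or upper quartile were tried. The 2-fold changes of the 8 genes belonged to LCP1, ACTN4 and PLS1. Of 30 values recomputed from them, 26 were still 2-fold and 0 changed direction. LCP1 was chosen for its fall, and the settings moved ACTN4 and PLS1 by much less than 1, so a reversal could hardly occur. Among all 160 recomputed changes of the 8 genes, 7 turned sign, each of them a small change. With a pseudocount of 1, LCP1 changed by -5.77 under hypoxia and -4.72 in normoxia after TET1-si, and by -0.80 after hypoxia in TET1-si cells, which left 0 genes lower there. In TPM, ACTN4 was at -0.98 in normoxia, which left 1 gene lower. PLS1 under hypoxia was at 0.94 by median of ratios and 0.97 by upper quartile, which left 0 genes higher. By median of ratios 18 genes of the actin lists were lower and 8 higher after TET1-si under hypoxia, against 11 and 12. The shares of all genes under that scaling are not given here. Leaving out a replicate was not possible. These scalings moved the median change of all genes from 0.10 to -0.03 (median of ratios) and 0.17 (TPM) under hypoxia. In the TET1-si libraries LCP1 rests on about 148 and 45 reads, and depth limits TET1 more than any of the 8 genes.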
